A study of Mus musculus with 6 samples.

Results

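The 10 genes described here were followed in livers with and without Sirt5: Mdm2, Bax, Bbc3, Pmaip1, Phlda3, Gadd45a, Gadd45b, Trp53inp1, Bcl2l1 and Mcl1. They were chosen by symbol as targets of the tumour suppressor p53 or as regulators of mitochondrial apoptosis, with earlier results of these data known. All 10 were found among the 55536 genes of the deposited table, each in 1 row. The libraries came from 3 Sirt5-/- livers, which lack the mitochondrial deacylase SIRT5, and 3 Sirt5+/+ livers. All 6 were from male C57BL/6 mice given a hydrodynamic injection at 4 weeks of age and sampled 20 days later. In this method a large, fast injection into the circulation drives plasmid into part of the hepatocytes. The labels put all 6 libraries in the YAP5SA treatment, so both genotypes carried 50 µg of a PiggyBac plasmid with myc-tagged YAP5SA, an active form of the co-activator YAP, under the CMV promoter, and 10 µg of the Act-PBase transposase plasmid. No library without YAP5SA was analysed here. The labels do not say that each liver is a separate animal, and each p-value below reflects sample spread, which may be technical.

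The p53 protein is held at a low level by MDM2, a ubiquitin ligase whose gene p53 itself activates, which closes a feedback loop. Stabilised p53 activates genes that stop the cell cycle, aid DNA repair or favour apoptosis. In mitochondrial apoptosis, BH3-only proteins, among them PUMA and NOXA, bind anti-apoptotic proteins such as BCL-XL or MCL-1. The effector BAX can then permeabilise the outer mitochondrial membrane. Hepatocytes depend on both BCL-XL and MCL-1 for survival.

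Library totals were 20025180 to 24330797 estimated counts in Sirt5-/- livers and 19307808 to 23410091 in Sirt5+/+ livers. Sirt5 itself had 13.8, 44.65 and 18.0 counts in the Sirt5-/- libraries, against 352, 441 and 95.7 counts in the Sirt5+/+ libraries, so the genotypes were well separated. The share of mitochondrially encoded transcripts was 40.8, 21.5 and 17.5% in the Sirt5-/- livers (replicates in numerical order, as throughout), against 7.20, 6.58 and 46.4% in the Sirt5+/+ livers. Sirt5-/- replicate 1 and Sirt5+/+ replicate 3 therefore stood apart, and results that rest on them are given with and without them. Levels are given below in CPM, which are counts scaled by the TMM-adjusted total of each library, or in the deposited TPM, which are per transcript length but not rescaled between libraries. Hepatocyte markers were present in every library, with summed levels of 18823 to 36768 CPM in Sirt5-/- and 84858 to 111077 CPM in Sirt5+/+ livers. In bulk tissue, fewer cells of a type and less RNA per cell cannot be told apart.

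Of the 10 genes, 5 rose in Sirt5-/- livers and none fell. Phlda3 and Gadd45b were about 5 times as high, Bax about 2 times, and the anti-apoptotic genes Mcl1 and Bcl2l1 1.84 and 1.64 times. Mdm2, Trp53inp1, Gadd45a and the BH3-only genes Bbc3 and Pmaip1 did not pass the test. The test was edgeR's quasi-likelihood F test on Sirt5-/- minus Sirt5+/+, with Benjamini-Hochberg adjustment across the 14799 genes tested and a threshold of 0.05. Among all tested genes 34.5% were called, 17.4% as higher and 17.1% as lower. The median log2 change was 0.93 over the 10 genes and -0.08 over all tested genes. All 10 changes were above 0, as were 47.1% of all changes.

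**Figure D1:**
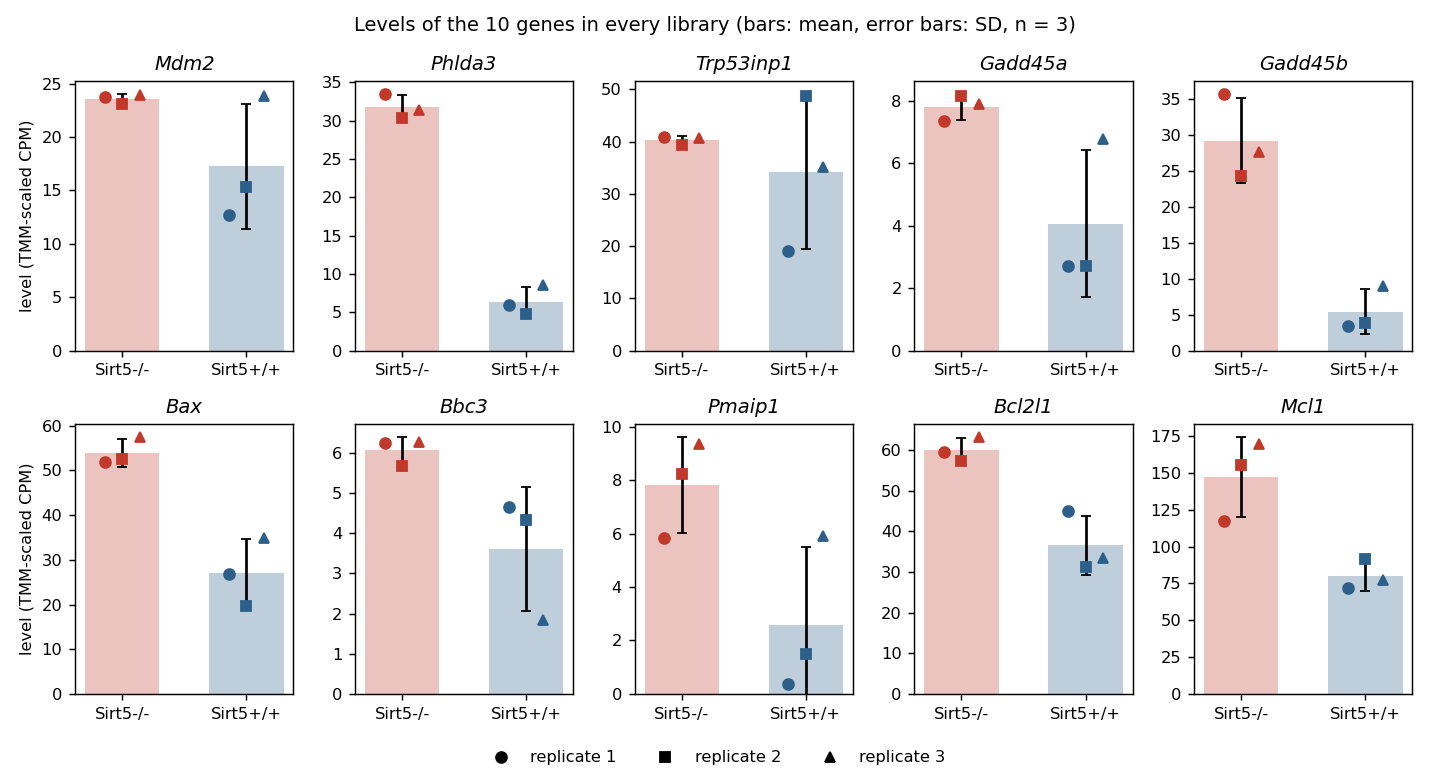
Level of each of the 10 genes in TMM-scaled CPM, with Sirt5-/- livers in red and Sirt5+/+ livers in blue. Bars are means, error bars are SD (n = 3) and symbols mark replicates. The Sirt5-/- values of Phlda3 (30.3 to 33.5 CPM) lie far above the Sirt5+/+ values (4.79 to 8.52 CPM), while for Mdm2 the Sirt5+/+ replicate 3 value (23.8 CPM) lies among the Sirt5-/- values.

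The 250 bases before the start sites of Phlda3, Gadd45b, Bax and Mdm2 are shown because Phlda3 and Gadd45b changed most and Bax and Mdm2 are the effector and the feedback regulator of the pathway. They are RefSeq sequences of build GRCm38.p6, 5′ to 3′ in the direction of transcription, from chr1:135765835-135766084 (plus strand), chr10:80929841-80930090 (plus strand), chr7:45466899-45467148 (minus strand) and chr10:117710759-117711008 (minus strand). Capitals mark matches to the p53 decamer consensus.
Phlda3: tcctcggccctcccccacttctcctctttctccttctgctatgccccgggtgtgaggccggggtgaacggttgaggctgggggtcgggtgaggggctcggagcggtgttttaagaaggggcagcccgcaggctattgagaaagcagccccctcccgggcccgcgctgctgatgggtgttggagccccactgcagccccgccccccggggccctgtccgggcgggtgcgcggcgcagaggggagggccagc
Gadd45b: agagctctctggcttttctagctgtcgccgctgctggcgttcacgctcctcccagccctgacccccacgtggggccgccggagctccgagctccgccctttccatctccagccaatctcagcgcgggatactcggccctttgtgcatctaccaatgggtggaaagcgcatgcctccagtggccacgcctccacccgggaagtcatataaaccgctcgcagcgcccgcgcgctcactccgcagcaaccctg
Bax: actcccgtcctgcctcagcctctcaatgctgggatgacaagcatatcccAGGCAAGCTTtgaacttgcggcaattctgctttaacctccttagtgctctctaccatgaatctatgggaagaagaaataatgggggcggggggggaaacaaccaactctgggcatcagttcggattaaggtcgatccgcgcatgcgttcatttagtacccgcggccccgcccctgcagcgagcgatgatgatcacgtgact
Mdm2: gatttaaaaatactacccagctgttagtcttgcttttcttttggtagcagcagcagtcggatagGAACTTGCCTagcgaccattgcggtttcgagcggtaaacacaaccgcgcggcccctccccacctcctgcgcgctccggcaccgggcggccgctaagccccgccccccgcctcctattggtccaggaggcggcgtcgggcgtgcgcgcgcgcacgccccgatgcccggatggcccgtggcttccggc

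RefSeq windows of 300 bases, 250 before and 50 after a start site, were used for 8 of the 10 genes (12 windows). Windows on chromosome 18, which holds Pmaip1, were left out of the search, and none was at hand for Trp53inp1. Both strands were searched for the p53 decamer consensus, the TEAD motif GGAATG, the AP-1 motif TGANTCA and the cyclic AMP element TGACGTCA. The p53 decamer occurred once each in the windows of Bax, Gadd45a and Mdm2, from position 50, 211 and 65, counted from the 5′ end of the window, and 8.36% of all 32851 windows held it. No window of these 8 genes held a pair of p53 decamers at most 13 bases apart, as 0.0731% of all windows did. Only exact matches inside these windows were counted, and the rest of each gene was not searched. The TEAD motif occurred once in the windows of Phlda3, Mcl1 and 1 of the 3 windows of Bcl2l1, beside 14.7% of all windows. The Phlda3 match lies just after the start site and so outside the bases shown. No AP-1 motif or cyclic AMP element was found in these windows, and 7.81% and 1.79% of all windows held one. No match overlapped another. Of the 5 genes that rose, Bax had the p53 decamer, Phlda3, Mcl1 and Bcl2l1 the TEAD motif and Gadd45b none of the 4 motifs.

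Mdm2 (chromosome 10, 117688875 to 117710758, minus strand, GRCm38) encodes the ligase that marks p53 for degradation. Its level was 23.7, 23.1 and 23.97 CPM in Sirt5-/- livers, and 12.7, 15.3 and 23.8 CPM in Sirt5+/+ livers. Sirt5+/+ replicate 3 lay at the level of the Sirt5-/- libraries, so the genotypes overlapped, whereas the other Sirt5+/+ livers were lower. The log2 change of Mdm2 was 0.46 (95% interval -0.16 to 1.08), and it did not pass (edgeR, adjusted p = 0.223). Without Sirt5+/+ replicate 3 the log2 change was 0.81 and passed (adjusted p = 0.00998, edgeR), and without the mitochondria-rich library of each genotype it was 0.80 (adjusted p = 0.0211). Without any other single library it did not pass, with a lowest log2 change of 0.30 without Sirt5+/+ replicate 1 and a highest adjusted p of 0.435.

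Phlda3 (chromosome 1, 135766119 to 135769136, plus strand) encodes a small pleckstrin homology protein that is a direct p53 target and restrains the kinase AKT. It had 33.5, 30.3 and 31.4 CPM in Sirt5-/- livers, against 5.93, 4.79 and 8.52 CPM in Sirt5+/+ livers. The groups were far apart, with the lowest Sirt5-/- value well above the highest Sirt5+/+ value. Phlda3 rose by 2.33 log2 units (SE 0.27; edgeR, adjusted p = 0.00168), a 5.02-fold change. It passed with any single library left out (log2 change from 2.13 to 2.62). Phlda3 ranked 162nd by p among the 14799 genes tested.

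Trp53inp1, a p53-induced nuclear protein gene linked to autophagy and the oxidative stress response (chromosome 4, 11156431 to 11174379, plus strand), showed no such separation. Its level was 40.9, 39.3 and 40.6 CPM in Sirt5-/- livers, and 18.98, 48.7 and 35.1 CPM in Sirt5+/+ livers. The Sirt5-/- values lay inside the Sirt5+/+ range. The log2 change of 0.23 had a 95% interval of -0.54 to 1.00 (edgeR, adjusted p = 0.626), and without Sirt5+/+ replicate 1 it was -0.032.

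The GADD45 proteins are small stress-induced proteins that bind MAP kinase kinase kinases, PCNA and p21. Gadd45a is a p53 target, and Gadd45b is best known as a target of NF-kB and TGF-beta signalling. Gadd45b (chromosome 10, 80930073 to 80932204, plus strand) had 35.8, 24.3 and 27.7 CPM in Sirt5-/- livers, and 3.42, 3.82 and 9.04 CPM in Sirt5+/+ livers. The genotypes were clearly separated, with Sirt5+/+ replicate 3 the highest of its group. Gadd45b rose by 2.48 log2 units (SE 0.40; edgeR, adjusted p = 0.00332), a 5.57-fold change and the largest among the 10 genes. It passed with any single library left out (log2 change from 2.25 to 3.06).

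Gadd45a (chromosome 6, 67035096 to 67037457, minus strand) had 7.35, 8.16 and 7.89 CPM in Sirt5-/- livers, and 2.70, 2.70 and 6.78 CPM in Sirt5+/+ livers. The groups did not overlap, but Sirt5+/+ replicate 3 lay close below the Sirt5-/- libraries. The log2 change of 0.98 ± 0.40 (SE) missed the threshold (adjusted p = 0.0906, edgeR). Without Sirt5+/+ replicate 3 it was 1.58 and passed (adjusted p = 0.00103, edgeR), but without any other single library it did not, with a lowest value of 0.73 and a highest adjusted p of 0.250. An exon of the opposite-strand gene E230016M11Rik overlaps Gadd45a, and that gene held 114 counts over the 6 libraries; whether strand was used in counting is not given in the sources used here.

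Bax (chromosome 7, 45461697 to 45466898, minus strand) encodes the pore-forming effector of mitochondrial apoptosis and is a p53 target. Its level was 51.8, 52.6 and 57.5 CPM in Sirt5-/- livers, against 26.9, 19.6 and 34.9 CPM in Sirt5+/+ livers. Every Sirt5-/- library was higher than every Sirt5+/+ library. Bax rose by 1.00 log2 units (SE 0.27; edgeR, adjusted p = 0.0215), a 1.99-fold change. The call ended when any Sirt5-/- library or replicate 2 of Sirt5+/+ was left out (adjusted p from 0.0591 to 0.0864), and with library totals as the scaling (log2 change 1.78, adjusted p = 0.0596). Of the 31-base words of Bax transcripts, 11.1% also occur in other genes, mostly Gm45808, which held 30.2 counts in all.

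The BH3-only genes had the lowest mean TPM of the 10 in both genotypes. Bbc3 (chromosome 7, 16308393 to 16318205, plus strand), which encodes PUMA, had 6.24, 5.68 and 6.27 CPM in Sirt5-/- livers, and 4.65, 4.32 and 1.83 CPM in Sirt5+/+ livers. The groups did not overlap, and the lowest value was that of Sirt5+/+ replicate 3, which held 14 counts of Bbc3. The log2 change was 0.72 with a 95% interval of -0.13 to 1.56 (edgeR, adjusted p = 0.167), and Bbc3 passed in none of 17 alternative settings.

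Pmaip1 (chromosome 18, 66458533 to 66465565, plus strand) encodes NOXA, which binds MCL-1. It had 5.83, 8.24 and 9.33 CPM in Sirt5-/- livers, and 0.380, 1.5 and 5.90 CPM in Sirt5+/+ livers. Sirt5+/+ replicate 3 reached the level of Sirt5-/- replicate 1, while Sirt5+/+ replicate 1 held only 8 counts. The log2 change of 1.72 had a wide 95% interval of -0.06 to 3.50 and did not pass (edgeR, adjusted p = 0.122). Without Sirt5+/+ replicate 3 it was 3.06 (adjusted p = 0.00122, edgeR), and without the mitochondria-rich library of each genotype it was 3.22 (adjusted p = 0.00120). Without any other single library it did not pass, with a lowest log2 change of 1.18 without Sirt5+/+ replicate 1 and a highest adjusted p of 0.304. With library totals it was 2.87 and passed (adjusted p = 0.00303, edgeR).

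The anti-apoptotic members moved in the same direction as Bax. Mcl1 (chromosome 3, 95658788 to 95663176, plus strand) had 117, 155 and 170 CPM in Sirt5-/- livers, against 71.6, 91.6 and 77.3 CPM in Sirt5+/+ livers. Bcl2l1 (chromosome 2, 152780668 to 152831728, minus strand), which encodes BCL-XL, had 59.5, 57.3 and 63.2 CPM in Sirt5-/- livers, against 44.9, 31.4 and 33.4 CPM in Sirt5+/+ livers. Neither gene overlapped between genotypes. Mcl1 rose by 0.88 ± 0.27 (adjusted p = 0.0351) and Bcl2l1 by 0.71 ± 0.24 (adjusted p = 0.0495) in log2 units (± SE, edgeR). The call of Mcl1 ended when replicate 2 or 3 of Sirt5-/- or replicate 1 or 2 of Sirt5+/+ was left out (highest adjusted p = 0.145), and that of Bcl2l1 when any Sirt5-/- library or replicate 2 of Sirt5+/+ was (highest adjusted p = 0.165). With library totals Mcl1 and Bcl2l1 had larger log2 changes, 1.55 and 1.35, that missed the threshold (adjusted p = 0.110 and 0.174).

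The CPM of 7 of the 10 genes did not overlap between genotypes, all with Sirt5-/- higher. Over all tested genes this held for 25.8%, and 49.8% did not overlap in either direction. The coefficient of variation of CPM was smaller in Sirt5-/- than in Sirt5+/+ livers for 9 of the 10 genes, Mcl1 being the exception, and for 81.2% of all tested genes. For Mdm2 it was 1.83% in Sirt5-/- and 33.8% in Sirt5+/+ livers. In TPM the Sirt5-/- coefficients were wider, from 26.1 to 53.5% over the 10 genes, and the order turned for Mdm2 (49.8% in Sirt5-/- and 21.2% in Sirt5+/+ livers) and Phlda3 (41.7% in Sirt5-/- and 12.1% in Sirt5+/+ livers). Sirt5+/+ replicate 3 had the highest CPM of its genotype for 6 genes (Mdm2, Bax, Pmaip1, Phlda3, Gadd45a and Gadd45b), as it did for 37.4% of all tested genes. The TMM factor of this library was 0.396, against 0.983 and 1.20 in Sirt5+/+ replicates 1 and 2. A count of 1 equals 0.131 CPM in it, against 0.0474 and 0.0357 CPM in those replicates. In TPM the same library had the lowest value of its genotype for 8 genes, all but Mdm2 and Pmaip1, as it did for 85.8% of all tested genes. Without that library 8 of the 10 genes were called higher, beside 25.6% of all genes tested in that fit, and Bbc3 and Trp53inp1 were the genes not called.

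The number of the 10 genes called higher ranged from 2 to 8 over the alternative settings. Leaving out a Sirt5-/- library gave 3 called genes without replicate 1 (13.2% of all genes in that fit), 2 without replicate 2 (10.1%) and 2 without replicate 3 (9.53%). Leaving out a Sirt5+/+ library gave 4 without replicate 1 (14.6%) and 2 without replicate 2 (12.9%). Without the mitochondria-rich library of each genotype 7 were called (25.1%), and with mitochondrial genes and their nuclear copies removed 4 were (18.1%). DESeq2 called 5 (19.9%), limma-voom 7 (20% of all genes) and the authors' deposited table held 5 calls (20%, and 39.3% in either direction). Library totals gave 3, Phlda3, Gadd45b and Pmaip1, beside 16.5% of all genes higher and 2.2% lower. That scaling moved the median log2 change of all genes to 0.60, and each of the 10 genes stayed above it. A stricter filter gave 5 (18.6%), no filter 4 (10.7%), DESeq2 size factors 4 (17.8%) and upper-quartile factors 5 (20%). None of these fits called any of the 10 genes lower.

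**Figure D2:**
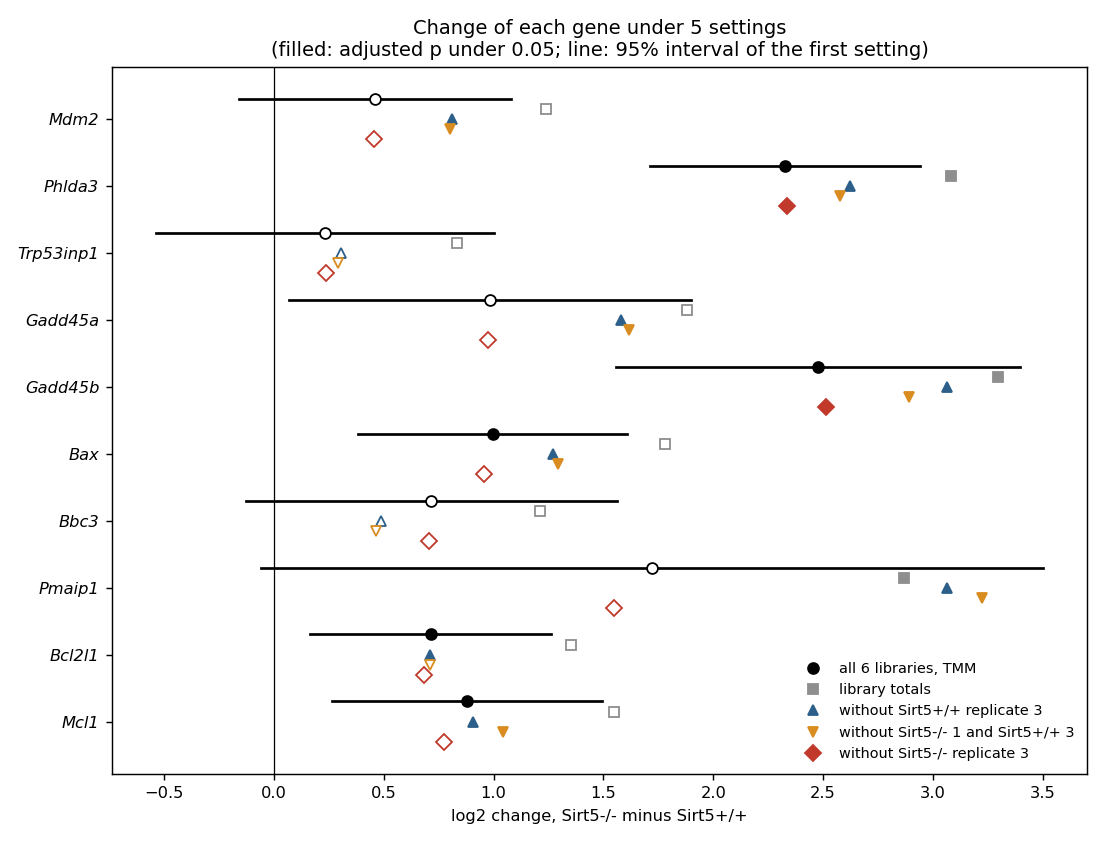
Log2 change of each gene, Sirt5-/- minus Sirt5+/+, under 5 settings. Filled symbols passed an adjusted p of 0.05, open symbols did not, and the black line is the 95% interval with all 6 libraries and TMM scaling. Phlda3 and Gadd45b are filled in every setting drawn, and Mdm2, Gadd45a and Pmaip1 are filled without Sirt5+/+ replicate 3.

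In the deposited TPM, which allow levels of different genes to be compared, Bax was the most abundant of the 10 genes in both genotypes. Its mean was 82.0 ± 32.5 TPM in Sirt5-/- and 29.8 ± 14.6 TPM in Sirt5+/+ livers (SD, n = 3 each). Mcl1 came next, at 51.2 ± 25.8 TPM in Sirt5-/- and 20.7 ± 13.8 TPM in Sirt5+/+ livers. In Sirt5-/- livers Phlda3 (30.7 ± 12.8 TPM), Bcl2l1 (29.7 ± 11.99 TPM) and Gadd45b (28.9 ± 7.55 TPM) followed, then Mdm2 (14.8 ± 7.36 TPM), Gadd45a (8.48 ± 3.29 TPM) and Trp53inp1 (8.39 ± 3.10 TPM). Neighbours in this order differed by less than the larger of their SDs, except Gadd45b and Mdm2, and Trp53inp1 and Bbc3. In Sirt5+/+ livers Bcl2l1 followed at 14.1 ± 8.84 TPM, then Mdm2 (6.79 ± 1.44 TPM), Trp53inp1 (5.66 ± 5.17 TPM), Phlda3 (4.55 ± 0.549 TPM), Gadd45b (3.47 ± 1.19 TPM) and Gadd45a (2.82 ± 1.10 TPM). Here neighbours differed by less than the larger of their SDs, except Bbc3 and Pmaip1. Phlda3 and Gadd45b were thus near Bcl2l1 in mean level in Sirt5-/- livers and below its mean in Sirt5+/+ livers. The BH3-only genes were lowest, Bbc3 at 4.45 ± 1.70 TPM in Sirt5-/- and 2.59 ± 1.97 TPM in Sirt5+/+, and Pmaip1 at 3.76 ± 2.02 TPM in Sirt5-/- and 0.513 ± 0.310 TPM in Sirt5+/+.

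The TPM of a library include its mitochondrial transcripts in the total. Sirt5-/- replicate 1 had the lowest TPM of its genotype for all 10 genes, as it did for 90.2% of all tested genes. On this scale 5 of the 10 genes (Bax, Pmaip1, Phlda3, Gadd45a and Gadd45b) did not overlap between genotypes, with Sirt5-/- higher, which held for 21.5% of all tested genes. Mcl1 then had 22.6, 58.0 and 73.0 TPM in Sirt5-/- livers and 21.5, 34.1 and 6.54 TPM in Sirt5+/+ livers, and the groups overlapped. The same was true of Bcl2l1, with 16.9, 31.5 and 40.7 TPM in Sirt5-/- livers and 20.9, 17.4 and 4.12 TPM in Sirt5+/+ livers.

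Ratios between genes of one library cancel the scaling of that library, apart from the 0.1 TPM added to each value, and 5 pairs were compared. The log2 ratio of Bax to Bcl2l1 was 1.46, 1.48 and 1.45 in Sirt5-/- livers, against 0.93, 1.06 and 1.64 in Sirt5+/+ livers. The pro- and anti-apoptotic genes thus kept nearly the same ratio in the 3 Sirt5-/- livers, inside the wider Sirt5+/+ range (difference 0.25; two-sided exact permutation p = 0.4, or 0.667 after adjustment over the 5 pairs). For Bax to Mcl1 the mean log2 ratio was 0.75 ± 0.26 in Sirt5-/- and 0.65 ± 0.49 in Sirt5+/+ livers (SD, n = 3 each; exact permutation p = 0.8). For Bbc3 to Mcl1 it was -3.41 ± 0.33 in Sirt5-/- and -3.23 ± 0.75 in Sirt5+/+ livers (exact permutation p = 0.7). For Pmaip1 to Mcl1 it was -3.74 ± 0.05 in Sirt5-/- and -4.96 ± 1.64 in Sirt5+/+ livers (exact permutation p = 0.4), and the difference of 1.23 ranged from 0.52 without Sirt5+/+ replicate 1 to 2.12 without Sirt5+/+ replicate 3. The 3 ratios of a pro-apoptotic gene to Mcl1 overlapped between genotypes.

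The log2 ratio of Gadd45b to Gadd45a was 2.19, 1.49 and 1.75 in Sirt5-/- livers and 0.30, 0.24 and 0.37 in Sirt5+/+ livers, with no overlap and a difference of 1.51. The exact permutation p of 0.1 is the smallest that 3 livers against 3 can give, and with an adjusted p of 0.5 over the 5 pairs the difference did not pass. The difference stayed between 1.32 and 1.67 with any single library left out.

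**Figure D3:**
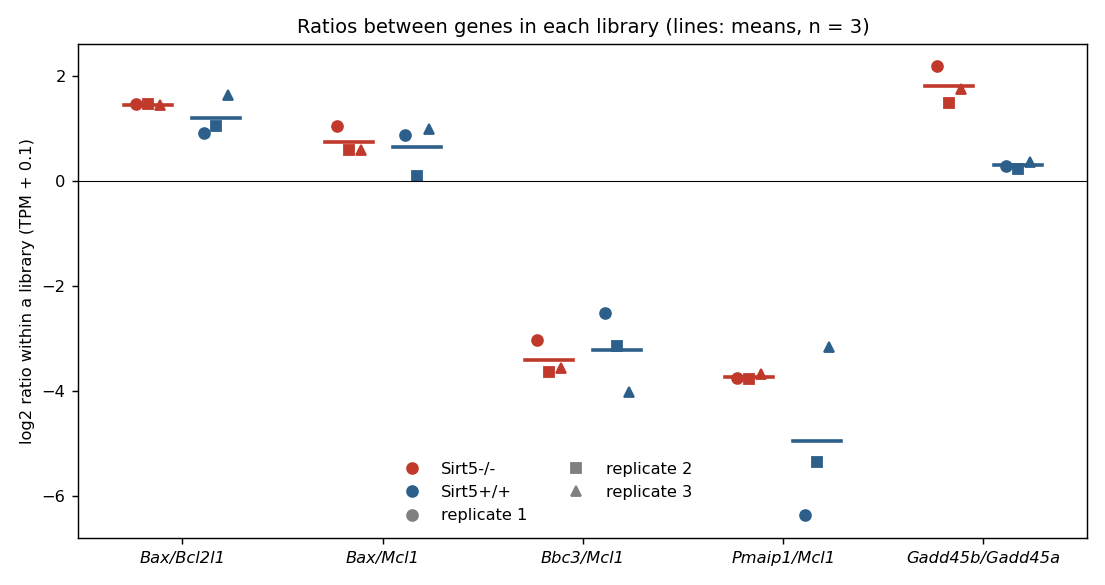
Log2 ratio of TPM (plus 0.1) between 2 genes within each library for 5 pairs, with Sirt5-/- in red and Sirt5+/+ in blue. Symbols mark replicates and lines are means (n = 3). For Gadd45b to Gadd45a the red points (1.49 to 2.19) lie above the blue points (0.24 to 0.37), and for Bax to Bcl2l1 the red points fall together inside the range of the blue ones.

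Other genes of the pathway were read from lists chosen from textbook knowledge, with earlier results of these data known. Each count stands beside 17.4% higher and 17.1% lower over all tested genes. Of 11 tested genes of p53 and its regulators, 3 rose and 1 fell, with a median log2 change of 0.19. Cdkn2a, whose locus encodes the MDM2 inhibitor p19ARF and the CDK inhibitor p16INK4a, had 12.5, 13.3 and 18.7 CPM in Sirt5-/- livers, against 0.807, 0.393 and 1.70 CPM in Sirt5+/+ livers. It rose by 4.12 log2 units (SE 0.50; edgeR, adjusted p = 0.00180) and passed with any single library left out. Trp53 itself, at 47.4 ± 6.86 CPM in Sirt5-/- and 27.8 ± 6.07 CPM in Sirt5+/+ livers (SD, n = 3 each), rose by 0.77 (adjusted p = 0.0482, edgeR). The p53 phosphatase gene Ppm1d rose by 0.82 (adjusted p = 0.0406), and Rchy1, which encodes the p53 ligase PIRH2, fell by 0.80 on the log2 scale (adjusted p = 0.0288). The calls of Trp53, Ppm1d and Rchy1 were lost without any one Sirt5-/- replicate, that of Trp53 also without Sirt5+/+ replicate 2, that of Ppm1d without Sirt5+/+ replicate 1 or 2 and that of Rchy1 without Sirt5+/+ replicate 1. They were also lost with library totals, where the log2 changes of Trp53, Ppm1d and Rchy1 were 1.496, 1.52 and -0.061 (adjusted p = 0.125, 0.136 and 0.965). Trp63 and Trp73 were too low to be tested.

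Among 28 other p53 target genes, 10 rose and 4 fell, and the median log2 change was 0.34. Cdkn1a, which encodes the CDK inhibitor p21, had 58.0, 55.4 and 73.3 CPM in Sirt5-/- livers, against 8.54, 7.02 and 12.1 CPM in Sirt5+/+ livers. It rose by 2.77 log2 units (SE 0.29; edgeR, adjusted p = 0.00148). The death receptor gene Tnfrsf10b rose by 2.71, the microtubule-associated gene Psrc1 by 3.82 and the polo-like kinase gene Plk2 by 2.06 on the log2 scale. These 4 genes passed with any single library left out. The other genes that rose were Ccng1, Zmat3, Btg2, Eda2r, Polk and Tnfaip8. Those that fell were Ei24, Cdip1, Ephx1 and Trp53inp2, of which Ephx1 is an abundant hepatocyte detoxification enzyme gene. The last 6 genes that rose and the 4 that fell were named after their values were seen. With library totals 10 genes of the list were higher and none lower, beside 16.5% higher and 2.2% lower over all genes.

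Within the rest of the BCL2 family 5 of 12 tested genes rose and none fell, with a median log2 change of 0.69. The anti-apoptotic genes Bcl2a1a, Bcl2a1b and Bcl2a1d, which are best known from leukocytes, rose by 3.42, 3.58 and 3.79 (adjusted p = 0.00574, 0.00362 and 0.00167, edgeR). They are uncertain as single genes, since 79.6, 88.8 and 89.1% of their 31-base words occur in other genes, mainly in one another. Macrophage and monocyte markers, at a summed 755 to 1344 CPM in Sirt5-/- and 172 to 252 CPM in Sirt5+/+ livers, moved in the same direction, and their part in these changes was not tested. Bcl2, the founding anti-apoptotic member, had 6.15 ± 1.5 CPM in Sirt5-/- and 1.73 ± 0.819 CPM in Sirt5+/+ livers (SD, n = 3 each). It rose by 1.86 (adjusted p = 0.0142, edgeR), and its call ended without Sirt5-/- replicate 2 or 3 (adjusted p up to 0.0658). The fifth gene was the effector Bak1, named after its values were seen, which rose by 1.23 (adjusted p = 0.0190, edgeR). With library totals Bak1 had a log2 change of 1.79 and missed the threshold (adjusted p = 0.0596, edgeR), and its TPM overlapped between genotypes. Hrk and Bcl2l10 had no count in any library, which allows at most 0.0827 to 0.393 CPM per library (3 counts, counting error only).

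Of 13 genes of the apoptosome, the caspases and their inhibitors, 3 rose and 2 fell, and the median log2 change was -0.50. Apaf1, the scaffold of the apoptosome and a p53 target, had 8.40, 10.1 and 11.3 CPM in Sirt5-/- livers, against 1.99, 2.54 and 2.096 CPM in Sirt5+/+ livers. It rose by 2.16 log2 units (SE 0.28; edgeR, adjusted p = 0.00193). The genes of the mitochondrial flavoprotein AIF, Aifm1, and of the mitochondrial endonuclease, Endog, fell by 1.32 and 2.02 on the log2 scale (adjusted p = 0.00379 and 0.00241, edgeR). Apaf1, Aifm1 and Endog passed with any single library left out, but Aifm1 and Endog did not with library totals (adjusted p = 0.525 and 0.142). Htra2, a mitochondrial serine protease gene, rose by 0.85 (adjusted p = 0.0314, edgeR) and lost its call without any one Sirt5-/- replicate, without Sirt5+/+ replicate 2 or with library totals (adjusted p up to 0.124). The third gene that rose was the inhibitor gene Birc3, named after its values were seen. With library totals Birc3 had a log2 change of 1.60 and missed the threshold (adjusted p = 0.0996, edgeR).

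None of 7 tested genes of the death receptor pathway passed (edgeR; median log2 change -0.48). The smallest adjusted p was that of Cflar, which encodes the caspase-8 inhibitor c-FLIP, at 0.0586 with a log2 change of -0.76. Fadd, Ripk1 and Tradd, adaptors and a kinase of this pathway, had log2 changes of -1.21, -0.48 and -0.49 (adjusted p = 0.0924, 0.137 and 0.314). Fadd passed without Sirt5+/+ replicate 3 (-1.51, adjusted p = 0.00637, edgeR) and without the mitochondria-rich library of each genotype (-1.34, adjusted p = 0.0130), and Cflar passed when replicate 1 of Sirt5+/+ was left out (adjusted p = 0.0298). Under scaling by library totals, the log2 changes of Ripk1 and Tradd were 0.15 and 0.081, still below the median of all genes under that scaling (0.60). Fasl was too low to be tested. Gadd45g, the third GADD45 gene, had 149, 101 and 83.4 CPM in Sirt5-/- livers and 32.3, 20.5 and 63.2 CPM in Sirt5+/+ livers. It rose by 1.53 log2 units (SE 0.44; edgeR, adjusted p = 0.0275), but of the fits that left out a library it passed only without Sirt5+/+ replicate 3 (highest adjusted p = 0.0983). Its partners Gadd45gip1 and Map3k4 did not pass (log2 changes -0.85 and -0.14, and 0.13 and 0.38 with library totals, both below that median).

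**Figure D4:**
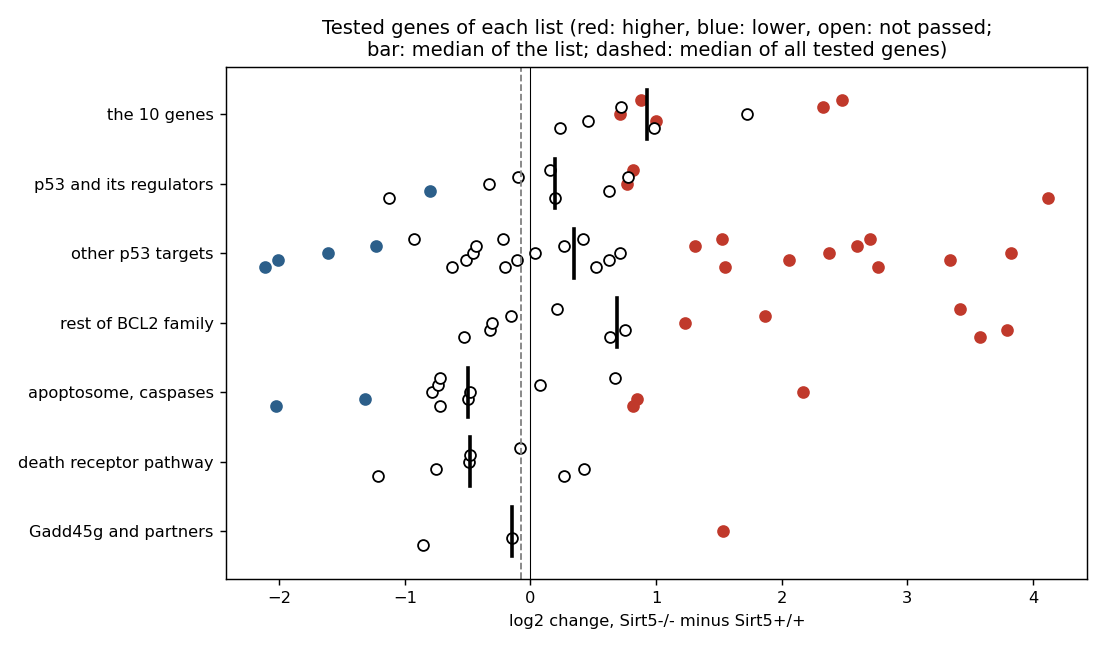
Log2 change, Sirt5-/- minus Sirt5+/+, of the tested genes in 7 lists. Red points passed as higher, blue points as lower and open points did not pass. The black bars are list medians and the dashed line is the median of all tested genes (-0.08). The 10 genes have no blue point, whereas the other p53 targets have 10 red and 4 blue ones.

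Over the 6 libraries Phlda3 and Gadd45b varied together most closely of the 45 pairs among the 10 genes (Pearson r of log2 CPM = 0.981), followed by Mdm2 and Pmaip1 (r = 0.979). The pairs with the lowest r were Mdm2 with Bbc3 (-0.016) and Trp53inp1 with Bcl2l1 (-0.0033). These points share 2 genotypes and the TMM scaling, so r is a description only. Among 12147 genes with established symbols and a mean of at least 1 CPM, those most like Mdm2 over the 6 libraries were Phtf1os (r = 0.999), Magoh (r = 0.996) and Arap3 (r = 0.995), and 296 genes had r above 0.95. Those most like Bax were Ctnnd2 (r = 0.999), Ube2c (r = 0.998) and Gpsm3 (r = 0.997), and 410 genes had r above 0.95.

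Markers of other cell types moved with these results. Beside the summed levels already given, 5 of the 7 macrophage and monocyte markers were higher and the Kupffer cell gene Clec4f was lower. The 6 stellate cell and fibroblast markers summed to 1628 to 1774 CPM in Sirt5-/- and 264 to 461 CPM in Sirt5+/+ livers. Of these markers 3 were higher and none lower. Most of the sum came from Col1a1 and Col3a1, with means of 498 and 1106 CPM in Sirt5-/- and 98.7 and 216 CPM in Sirt5+/+ livers. Lrat, Des and Acta2 did not pass (log2 changes -0.96, -0.27 and 1.40, adjusted p = 0.115, 0.673 and 0.134, edgeR). The bile duct cell markers summed to 739 to 818 CPM in Sirt5-/- livers (2 of 6 higher). In Sirt5+/+ replicates 1 to 3 they summed to 77.5, 138 and 386 CPM. Most of each sum was Spp1, which did not pass (adjusted p = 0.0621, edgeR). Spp1 had 535 to 617 CPM in Sirt5-/- livers, and 58.3, 117 and 351 CPM in Sirt5+/+ livers. All 5 markers of dividing cells were higher, at 38.2 to 62.7 CPM in Sirt5-/- and 8.16 to 16.9 CPM in Sirt5+/+ livers. The T, NK and B cell markers summed to 22.4 to 24.6 CPM in Sirt5-/- and 5.32 to 7.47 CPM in Sirt5+/+ livers (3 of 6 higher). Neutrophil markers were low, at 8.42 to 12.9 CPM in Sirt5-/- and 4.70 to 6.20 CPM in Sirt5+/+ livers, with 4 of 6 too low to be tested and Retnlg at 0 in 1 library of each genotype. Of 10 hepatocyte markers 8 were lower, and of 6 endothelial markers 3 were lower (53.8 to 67.7 CPM in Sirt5-/- and 83.2 to 137 CPM in Sirt5+/+ livers). The part of these cell types in the changes of the 10 genes was not tested.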

How the data were processed

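Bulk RNA of 6 livers was sequenced. HISAT2 2.1.0, RSEM 1.3.1 and DESeq2 1.24.0 are named in the submitters' processing notes, without role, options or genome build. The expected counts, deposited by the authors unscaled, were rounded to whole numbers for the tests. The TPM, deposited by the authors, were used for levels across genes and for ratios (pseudocount 0.1). The authors' deposited log2 fold changes and p-values served only as an alternative. All 55536 gene IDs and names match GENCODE M21, whose coordinates (GRCm38) are given.

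Genes were filtered with filterByExpr (minimum count 10, minimum total 15), scaled with TMM (factors 0.396 to 1.68) and tested with edgeR 4.0.16 (R 4.3.3), genotype as the only term, two-sided. Each standard error was obtained as the log2 change over √F. Steps were tested on simulated data. A floor of 3 counts equals 0.0827 to 0.393 CPM; intervals and floors cover counting or sample spread only. The 10 genes, lists and tests were chosen with earlier results of these data known. Genes named by rule are the 10, Sirt5, up to 4 genes of each pathway list with the smallest p, and for Mdm2 and Bax the 3 genes most correlated over the libraries. Other genes named fall outside this rule, and the single cell type markers among them were named after their values were seen. Alternatives were other scalings and filters, DESeq2 1.42.0, limma-voom (limma 3.58.1), a replicate block, left-out libraries, removal of mitochondrial genes and their nuclear copies, and the authors' calls; list counts without libraries were added after seeing the data.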

Additional observations from a re-analysis of the deposited data

How the results depend on the processing

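Phlda3 and Gadd45b passed in all 17 alternatives (log2 changes from 2.13 to 3.08 and from 2.25 to 3.30), Bax in 12, Mcl1 in 10 and Bcl2l1 in 7; Trp53inp1 passed in none and was -0.032 without Sirt5+/+ replicate 1, within a range of -0.032 to 0.56 over left-out libraries. Leaving out 1 library gave 2 to 8 of the 10 genes called, all higher and 0 lower, and 2531 to 7647 genes called in all (1441 to 3991 higher, 1090 to 3656 lower), against 5100 (2575 and 2525) with every library. With library totals 3 of the 10 genes and 2763 genes in all were called, 325 of them lower. Without the mitochondria-rich library of each genotype 3904 genes were called higher. Whether the replicate numbers pair the samples is not known. Correlations of same-numbered deviations were -0.19, 0.11 and -0.20, and those of other pairs ranged from -0.21 to 0.27. With 3 libraries per genotype these values cannot decide it. With the replicate block 1665 genes were called lower, Pmaip1 passed (adjusted p = 0.0482) and Mcl1 and Bcl2l1 did not (0.0770 and 0.104). For pathway lists, library totals left 1 p53 regulator higher and 0 lower, 0 other targets lower, and 1 apoptosome and caspase gene higher and 0 lower. Without the mitochondria-rich libraries 0 p53 regulators and 4 apoptosome and caspase genes were lower, and 1 death receptor gene was higher and 1 lower. Of all 15527 genes in that fit 3904 were higher and 3535 lower. With every library these lists held 11, 13 and 7 tested genes. Leaving out 1 library, p53 regulators ranged from 1 to 4 higher and 0 to 2 lower, other targets from 8 to 13 higher and 2 to 7 lower, the BCL2 family from 3 to 6 higher and 0 to 1 lower, apoptosome and caspase genes from 1 to 4 higher and 2 to 4 lower, death receptor genes from 0 to 1 in each direction, and Gadd45g was called in 0 or 1. With library totals Ripk1, Tradd, Gadd45gip1 and Map3k4 had log2 changes of 0.15, 0.081, 0.13 and 0.38, all below the median of all genes under that scaling (0.60); Map3k4 had 0.057 with upper-quartile factors and 0.11 without Sirt5+/+ replicate 1, within a range of -0.40 to 0.11 over left-out libraries. The log2 ratio difference of Bax to Mcl1 was -0.05 when Sirt5-/- replicate 1 was left out and -0.18 when Sirt5+/+ replicate 2 was, ranging from -0.18 to 0.26, and that of Bbc3 to Mcl1 was 0.17 without Sirt5+/+ replicate 1, ranging from -0.58 to 0.17; that of Bax to Bcl2l1 ranged from 0.11 to 0.47, and that of Pmaip1 to Mcl1 was 0.20 with a pseudocount of 1. The cause of these shifts was not tested. Among the 10 genes, Pmaip1 had 8 counts in Sirt5+/+ replicate 1 and Bbc3 14 in Sirt5+/+ replicate 3.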
